A study of Mus musculus with 4 samples.

Results

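The LIN28, IGF2BP and HMGA genes form a group of growth regulators of the embryo and fetus. The group was set as a list of 7 symbols, Igf2bp1, Igf2bp2, Igf2bp3, Lin28a, Lin28b, Hmga1 and Hmga2. Its members were taken by symbol, and the list was set with earlier results of these data known. Of the 7, 4 had a named probe set among the 19505 genes read here, namely Igf2bp3, Lin28a, Lin28b and Hmga2. Igf2bp1, Igf2bp2 and Hmga1 were not analysed here.

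The samples were hearts of ICR (Jcl:ICR) mice. At postnatal day 1 the pups were injected with PBS or with a viral vector preparation that carried Tbx6, a T-box transcription factor of early mesoderm, in a volume of 5 μl. The hearts were taken 7 or 30 days later, and 1 Clariom S microarray was deposited for each of the 4 groups, PBS at day 7, Tbx6 at day 7, PBS at day 30 and Tbx6 at day 30. One label field places the injection beneath the skin of the back and another in the heart, and the controls received no vector without Tbx6. The sources used here do not give the kind of virus, the promoter that drives Tbx6 or the number of hearts per RNA sample. Each group had a single array, so a difference between 2 arrays is given as a size with no test.

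LIN28A and LIN28B are RNA-binding proteins with a cold shock domain and zinc knuckles. They bind precursors of the let-7 microRNAs and block their maturation, which keeps let-7 low in embryonic cells. The IGF2BP proteins bind mRNAs through KH domains and affect their stability, transport and translation, and their name comes from the binding of Igf2 mRNA. HMGA1 and HMGA2 are small proteins that bind AT-rich DNA through AT hooks and alter chromatin. Transcripts of Hmga2, Lin28b and the Igf2bp genes are themselves known let-7 targets, and in most tissues most of these genes are high before birth and low in the adult.

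The let-7 sequences are given because LIN28 binds their precursors. No search of the members' own transcripts for let-7 sites is given. The 5p mature form of let-7g, a microRNA whose maturation LIN28 blocks, is printed with its seed (bases 2 to 8) in capitals, followed by a hairpin that holds the letters GGAG between its mature arms (in capitals) and a hairpin that does not. GGAG is the motif bound by the LIN28 zinc knuckles. The sequences are from RefSeq, build GRCm38.p6.
mmu-let-7g-5p: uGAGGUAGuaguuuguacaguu
Mirlet7g hairpin, chr9:106178840-106178927, plus strand: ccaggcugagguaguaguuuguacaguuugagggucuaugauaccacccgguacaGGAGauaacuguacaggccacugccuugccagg
Mirlet7b hairpin, chr15:85707319-85707403, plus strand: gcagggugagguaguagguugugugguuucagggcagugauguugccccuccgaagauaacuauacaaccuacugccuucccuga
All 11 let-7 and miR-98 hairpins with both arms in the table had the seed GAGGUAG, and 0 of the 633 other hairpins with both arms had it. The let-7 family is defined by that seed, so this split was fixed in advance. GGAG, searched on the transcribed strand between the arms, was in 8 of the 11 and in 44 (6.95%) of the 633 others. A match is a description of the letters. The levels of the let-7 microRNAs themselves were not analysed here.

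Almost every reading of the 4 measured members lay at background. The arrays carry 23 background probe sets, and a reading at or below the highest of them on its array (5.77 to 6.05 on the log2 scale) is called at background. By this rule 1 of the 16 member readings exceeded background, that of Igf2bp3 in the PBS heart sample of day 7. Lin28a, Lin28b and Hmga2 were at background on all 4 arrays, as were 9911 (50.8%) of the 19505 genes. These readings do not show whether the transcripts were absent or below what the probe sets could measure.

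**Figure D1:**
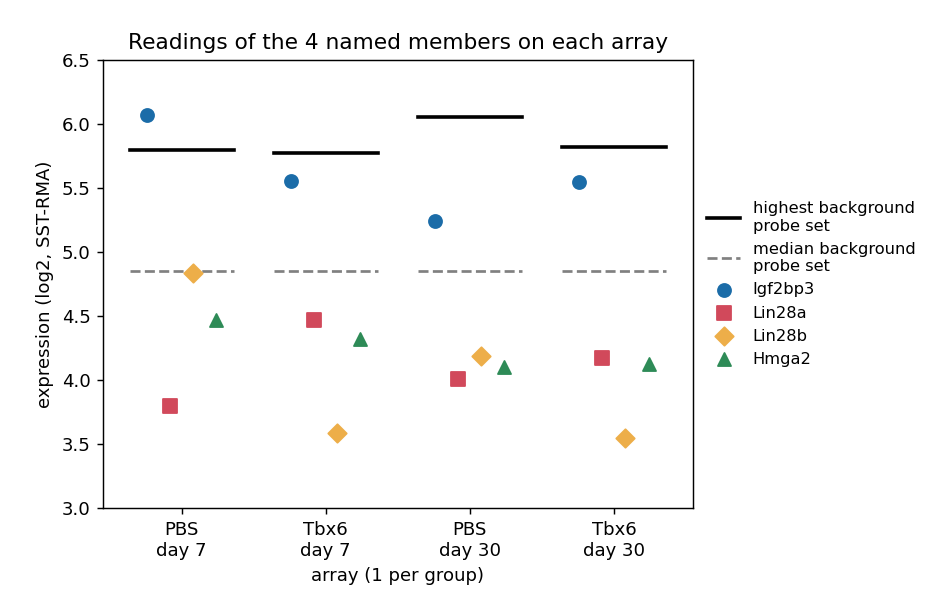
Log2 expression of Igf2bp3, Lin28a, Lin28b and Hmga2 (coloured symbols) on each of the 4 arrays, 1 array per group, with the highest (solid bar) and the median (dashed bar) background probe set of that array. Only Igf2bp3 on the PBS array of day 7, at 6.07, stands above the solid bar of its array, at 5.80.

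Igf2bp3, which encodes an RNA-binding protein of fetal tissues and many tumours, read 6.07 on the PBS array and 5.55 on the Tbx6 array of day 7, on the log2 scale. At day 30 its readings were 5.24 with PBS and 5.55 with Tbx6. The PBS array of day 7 was the highest, the PBS array of day 30 the lowest, and the arrays with Tbx6 were almost equal. The highest reading exceeded the top background probe set of its array by 0.27 and all 23 background probe sets, while the other 3 readings exceeded 19 or 20 of the 23. Among all genes on their arrays the readings stood at percentiles 56.9, 52.2, 49.5 and 52.5, near the middle. Having 1 reading above background was itself uncommon, at 556 (2.85%) of all genes. Of these, 152 had it on the PBS array of day 7 with a median excess of 0.22, close to that of Igf2bp3. On the other arrays the counts were 181 (Tbx6 at day 7), 41 (PBS at day 30) and 182 (Tbx6 at day 30).

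The PBS array of day 7 stood apart in some lung epithelial markers. Of 7 lung epithelial markers, 4 exceeded background there, against 0 on the Tbx6 array of day 7, 0 on the PBS array of day 30 and 1 on the Tbx6 array of day 30. Their summed level was 13.36 on the log2 scale there and 6.93 to 7.56 elsewhere, while the surfactant genes Sftpa1, Sftpb and Sftpc were at background on every array. The part of lung RNA in the Igf2bp3 reading was not tested. In these bulk samples, fewer cells of a type and less RNA per cell cannot be told apart.

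Igf2bp3 was the 1 member that passed the filter on mean level, and its difference between days did not pass the test. In an additive limma model with day and injection as terms, fitted to the 9753 genes with a mean of at least 5.30 (the median gene), day 30 minus day 7 was -0.42, with an SE of 0.28 and a Benjamini-Hochberg adjusted p from limma of 0.308. In the same test 26.3% of tested genes were called, 14.2% higher and 12.1% lower at day 30. Within the PBS pair the difference was -0.02 or lower once the day 30 reading was raised to the background of its array. Within the Tbx6 pair both readings were at background. Without the PBS array of day 7 the estimate became -0.16 (adjusted p of 0.741 by limma with day as the only term), and it was 0.0150 with all readings raised to background.

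The injections did not differ in Igf2bp3 by the test either. Tbx6 minus PBS was -0.10, with an SE of 0.28 and a Benjamini-Hochberg adjusted p from limma of 1, in a test that called 0% of the 9753 genes, with 421 genes at an unadjusted p under 0.05. At day 7 Tbx6 minus PBS was -0.30 or lower after the Tbx6 reading was raised to background. The deposited readings differed by -0.51, so whether the size reached 1.5-fold cannot be said. Between these arrays 15.6% of tested genes differed by at least 1.5-fold, 7.23% higher and 8.41% lower. At day 30 both readings were at background, and 13.2% of tested genes differed by at least 1.5-fold between those arrays, 7.13% higher and 6.06% lower.

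The 3 tested genes whose pattern over the 4 arrays was nearest to that of Igf2bp3, after each gene was centred on its own mean, were Xpo4 (Euclidean distance 0.04), which encodes a nuclear transport receptor, Zfp518b (0.06), a zinc finger gene, and Tubgcp5 (0.06), of the gamma-tubulin ring complex. Tubgcp5 was at background on all 4 arrays. With 9753 genes searched over 4 arrays, the likeness is a description only.

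Lin28a, the family member of embryonic stem cells, read 3.80 with PBS and 4.47 with Tbx6 at day 7. At day 30 the readings were 4.01 and 4.17. It was higher on the Tbx6 array of both days, an order whose share among genes was not counted. All 4 readings were at background and exceeded 10 or 11 of the 23 background probe sets. Their range of 0.66 was not unusual for such genes, since 40.7% of the 9911 genes at background on every array had a range at least as wide.

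Lin28b, the paralogue of fetal liver and other fetal tissues, had the widest range of the 4 members. At day 7 it read 4.84 with PBS and 3.58 with Tbx6, and at day 30 the same pair read 4.19 and 3.55. Both readings with PBS were above both with Tbx6, an order whose share among genes at background was not counted. Every reading was at background, so no difference is given by the rule. A range of 1.29 or more was found in 5.47% of the genes at background on all arrays. Between the arrays of day 7, 10290 genes were at background on both, 1574 (15.3%) of these differed by at least 1.5-fold in the deposited values, and 103 were as far apart as Lin28b. Lin28b missed the filter on mean level, and a fitted value for it is a difference between readings at background. When all 19505 genes were fitted, Tbx6 minus PBS was -0.94 with an SE of 0.27 (unadjusted p of 0.00708 and adjusted p of 1, limma), and 97 genes (0.497%) had an unadjusted p as low.

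Hmga2, whose loss gives the small pygmy mouse, varied least. Its readings at day 7 were 4.47 with PBS and 4.32 with Tbx6, and at day 30 they were 4.11 and 4.12. The arrays of day 7 were both above those of day 30, all at background, and the share of genes with that order was not counted. Of the genes at background on all arrays, 79.1% had a range at least as wide as its 0.36. Fitted without the filter to these readings at background, the deposited values of Hmga2 differed between days by -0.28 (SE 0.25, adjusted p of 0.558 by limma), Lin28b by -0.34 (SE 0.27, adjusted p of 0.499) and Lin28a by -0.04 (SE 0.26, adjusted p of 0.950). None of the 4 members was called for day, also without the filter. The fit without the filter called 2233 of its 19505 genes for day. Whether the members differ in this from the other genes was not tested.

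**Figure D2:**
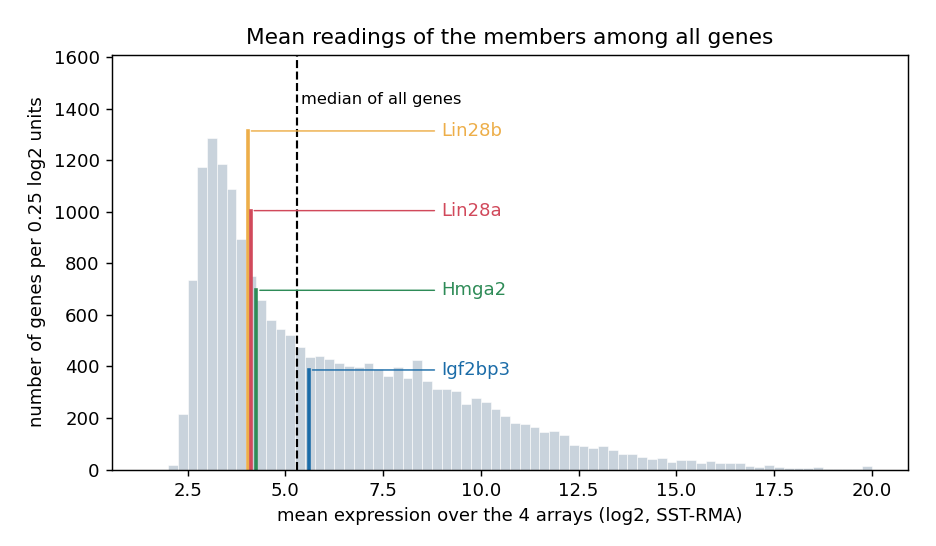
Number of genes at each mean log2 expression over the 4 arrays, in steps of 0.25, with the means of the members as coloured lines (their heights carry no meaning) and the median of all genes as a dashed line. Lin28b at 4.04, Lin28a at 4.11 and Hmga2 at 4.26 lie left of the median of 5.30, and Igf2bp3 at 5.60 lies just right of it.

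The background level itself differed with the GC number that the background probe sets carry in their identifiers, from 3 to 25. The 11 numbered 8 to 18 read 2.06 to 4.02, while the 12 others read 4.85 to 6.05. The sources used here do not say which of these numbers match the probes of the members. Against the highest of those 11, a level chosen after the values were seen, 13 of the 16 member readings were above, with all 4 of Igf2bp3, all 4 of Hmga2, 3 of Lin28a and 2 of Lin28b. Against the same level 61.4% of all genes were above on all 4 arrays and 24.6% on none. Lin28b was above it on both arrays with PBS and on neither with Tbx6. The share of all genes split in this way was not counted.

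Around LIN28, the list of let-7 processing genes held 13 measured of 14, of which 11 were tested for day, 1 (9.09%) was higher and 2 (18.2%) were lower, beside 14.2% and 12.1% over all genes. Their median day change was -0.18, against -0.02 over all tested genes. Ago3, an Argonaute gene, read 7.63 and 7.40 at day 7 and 8.37 and 8.25 at day 30 (PBS before Tbx6), a rise of 0.80 (SE 0.24, adjusted p of 0.0421 by limma). Dicer1, the nuclease that cuts precursor hairpins, fell by 1.07 (SE 0.31, adjusted p of 0.0351), and Tut4, the uridylyl transferase that LIN28A recruits to pre-let-7, fell by 0.78 (SE 0.25, adjusted p of 0.0470). Khsrp, which promotes let-7 maturation, differed by -0.71 (adjusted p of 0.0816). These calls were weak: with day as the only term, those of Ago3 and Tut4 were lost when any of the 4 arrays was left out (adjusted p of 0.0509 to 0.142 and of 0.0801 to 0.178), and that of Dicer1 was lost without the Tbx6 array of day 7 (0.129), the PBS array of day 30 (0.0647) or the Tbx6 array of day 30 (0.171). Without the filter 0 of the 3 calls held, and with a trended robust prior that of Tut4 was lost (0.0572). Trim71, a partner gene of the same pathway, was at background on all arrays like the Lin28 genes.

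Of 26 reported let-7 targets outside the group, 22 were measured and 15 tested for day, of which 2 (13.3%) were higher, 4 (26.7%) were lower and 9 did not pass, with a median of -0.64. Over all tested genes 14.2% were higher and 12.1% lower, and the shares of this and the lists that follow are read beside these. Tgfbr1, a TGF-beta receptor gene, read 9.15 and 8.78 at day 7 and 7.23 and 7.52 at day 30 (PBS before Tbx6), and fell by 1.59 (SE 0.27, adjusted p of 0.00381 by limma). Cdk6 fell by 1.30 (SE 0.29, adjusted p of 0.0125) and E2f6, a repressor of the E2F family, rose by 1.27 (SE 0.24, adjusted p of 0.00706). The other called genes were Igf1r and Dicer1, lower, and Cdc34, a ubiquitin-conjugating enzyme gene, higher by 0.85 and named after its value was seen. Thbs1, a matricellular protein gene, differed by -1.14 (adjusted p of 0.0929), with -2.22 within the PBS pair and -0.05 within the Tbx6 pair. It was -0.51 without the PBS array of day 30, and passed at -1.59 without the Tbx6 array of day 7 (adjusted p of 0.0401) and at -1.76 without that of day 30 (0.0390). It also passed with readings raised to background (0.00837). The deposited values of Myc differed by -0.81 (adjusted p of 0.118) and by -0.68 once its day 30 readings, both at background, were raised. Myc read 7.45 on the PBS array of day 7 and 5.68 to 5.93 elsewhere. Without that array its day change was 0.0292, and without the Tbx6 array of day 7 it was -1.64 and passed (0.00529). The list had 1 lower call without the PBS array of day 30, where the Cdk6 call was lost (adjusted p of 0.0735), 1 higher call, that of Cdc34 being lost, without either array of day 30 or the PBS array of day 7, and 7 lower calls with readings raised to background.

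Of 15 transcripts reported to be bound by IGF2BP proteins, 12 were measured and 10 tested, of which 0 were higher and 3 (30.0%) were lower, beside 14.2% and 12.1% over all genes, with a median of -0.89. Igf2, the fetal growth factor whose mRNA gave the family its name, read 17.71 and 17.46 at day 7 and 12.93 and 12.73 at day 30, and fell by 4.76 (SE 0.24, adjusted p of 2.1e-05 by limma). Mki67, a proliferation marker, fell by at least 4.58 with its PBS reading of day 30 at background (limma on the values as deposited, adjusted p of 4.06e-05). Igf1r, the receptor gene of the IGF pathway, fell by 1.01 (SE 0.24, adjusted p of 0.0174), and that call was lost without the PBS (0.0672) or the Tbx6 (0.0608) array of day 30. Ucp1, the uncoupling protein gene of brown fat, was 11.92 on the PBS array of day 7 and 5.69 to 8.34 elsewhere, and its difference of -2.74 in the deposited values did not pass (adjusted p of 0.133). Its PBS reading of day 30 was at background, and with readings raised the difference was -2.56 and passed (0.00551). Without the PBS array of day 7 it was -0.58 (adjusted p of 0.659), and without the Tbx6 array of day 7 it was -4.91 and passed (0.00427). Without the latter array the list had 6 lower calls, and with readings raised to background it had 5. H19, which the naming rule also takes, was not analysed here.

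Relatives of the members by protein family were mostly measurable. Of 10 tested HMG genes outside the HMGA pair, 0 were higher and 4 (40.0%) were lower, beside 14.2% and 12.1% over all genes, with a median of -0.64. Hmgb2, of proliferating cells, read 8.31 and 7.87 at day 7 and was at background at day 30, a fall of at least 2.16 (limma on the values as deposited, adjusted p of 0.000144), and Hmgb1 fell by 1.23 (SE 0.24, adjusted p of 0.00769). Hmgb2, at 5.47 with PBS and 4.41 with Tbx6 at day 30, passed the filter on mean level through its day 7 readings. Hmgn3 fell by 1.13 (adjusted p of 0.0276) and Hmgn2 by 0.98 (adjusted p of 0.0384), but both calls were lost without the PBS array of day 7 (0.198 and 0.174), without the PBS array of day 30 (0.149 and 0.162) and without the Tbx6 array of day 30 (0.175 and 0.118), so 2 lower calls were left, as also without the filter. Hmgb1 and Hmgn2 have many near-identical copies in the genome and are uncertain. Of 4 tested cold shock domain genes 1 was called, beside 26.3% of all genes. It was Carhsp1, which fell by 1.39 (SE 0.25, adjusted p of 0.00494), while Ybx1 differed by 0.39 (adjusted p of 0.280), Ybx2 by -0.16 and Ybx3 by 0.19.

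Of 17 tested KH domain genes outside the IGF2BP family, 0 were higher and 6 (35.3%) were lower, beside 14.2% and 12.1% over all genes, with a median of -0.71. Bicc1 fell by 1.40 (SE 0.25, adjusted p of 0.00468 by limma). Fmr1, the fragile X gene, fell by 1.24 (SE 0.24, adjusted p of 0.00752), a call lost without the PBS array of day 30 (0.0613). Fubp3 fell by 1.19 (adjusted p of 0.0232), a call lost without the Tbx6 array of day 7 (0.0764) or of day 30 (0.127), and Mex3c fell by 1.12 (adjusted p of 0.0184), a call lost without the PBS array of day 7 (0.0562), the Tbx6 array of day 7 (0.0646) or the PBS array of day 30 (0.139). The list had 2 lower calls without the PBS array of day 30 and 3 without each of the others. Igf2bp3, at -0.42, lay among the genes of this family that did not pass. Whether it differs from them was not tested.

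**Figure D3:**
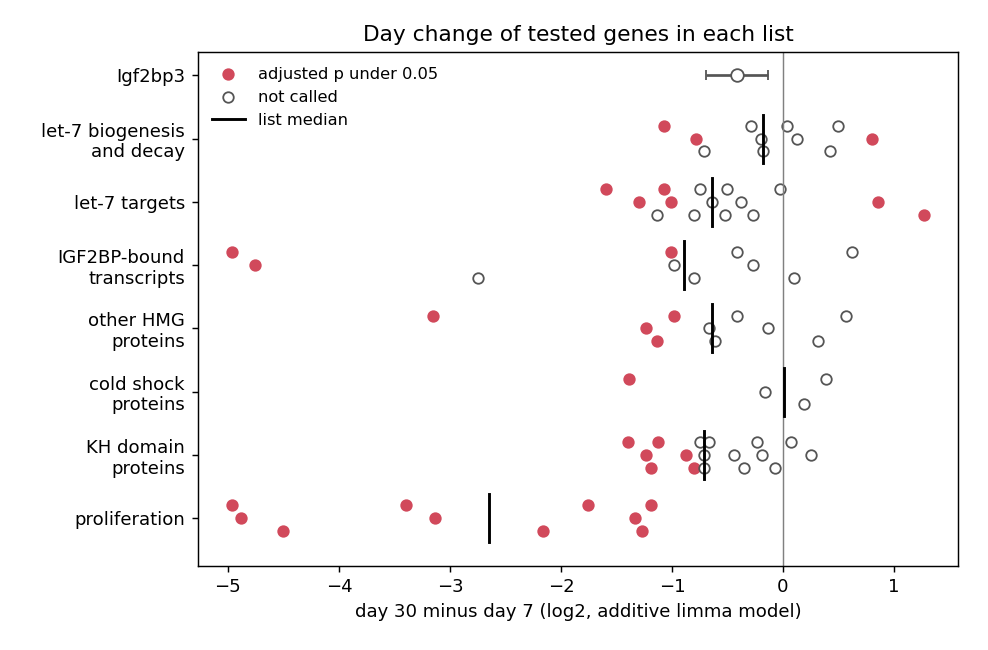
Day 30 minus day 7 (log2, additive limma model on 4 arrays) for Igf2bp3 with its standard error and for the tested genes of each list, filled where the adjusted p was under 0.05 and with a bar at the list median. Igf2bp3 is open at -0.42. All 10 tested proliferation genes are filled and left of 0, and the KH domain list holds 6 filled points, all left of 0.

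Marker genes of several cell types also differed between days. Of 15 measured proliferation genes 10 were tested and all 10 fell, beside 12.1% lower over all genes. Their median in the deposited values was -2.65. With readings raised to background, the day change was -2.72 or lower in Ccna2, -2.70 or lower in Ccnb2 and -1.82 or lower in Ube2c. These are bounds because day 30 readings were at background. Ccna2, Ube2c, Plk1, Ccnb2 and Mcm3 passed the filter on mean level through their day 7 readings, so the 10 of 10 rests partly on the filter. With all 4 arrays and other settings the list had 9 to 15 lower calls. The bound of Mcm3 was only -0.03. Cdk1, Aurkb and Bub1, at background on every array, were not tested, nor were Birc5 and Mcm5. Of 7 tested fibroblast markers 6 fell, of 7 macrophage markers 6 rose, and of 7 endothelial markers 2 fell, beside 14.2% higher and 12.1% lower over all genes, while 0 of 10 cardiomyocyte markers were called. Of these, Actc1 and Pln read exactly the same on every array and Myl2, Tnnt2 and Myh6 read 19.75 to 19.93, near the top of the scale, so no call could be made for the first pair and a change in the others could go unseen. The part of these cell types in the changes of the lists was not tested. All 10 cardiomyocyte markers were above background on every array, and all 6 liver markers and 6 of 7 measured lymphocyte and thymocyte markers were at background on every array. Of the erythroid markers the globin genes were not analysed here, and of the 5 measured ones Epor, Gata1 and Klf1 were at background on every array. Alas2, the haem synthesis gene of red cells, read 12.52 on the PBS array of day 7 and 9.24 to 10.73 elsewhere and fell by 2.09 (adjusted p of 0.0136 by limma), and Tfrc read 11.41 to 12.76. Of 8 skeletal muscle markers 7 were at background on every array. Of 8 adipocyte markers, 6 were above background on both arrays of day 7, 4 on the PBS array and 6 on the Tbx6 array of day 30. Of the 6 tested ones, 4 were lower by at least 1.5-fold with Tbx6 at day 7, beside 8.41% of all tested genes. At day 30, 5 were higher by that size, beside 7.13% of all tested genes. Both sets held Adipoq (-1.91 and 2.33) and Car3 (-2.22 and 1.48). Ucp1 is 1 of these markers, and the part of the others' shift in its readings was not tested.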

How the data were processed

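Heart RNA from 4 mouse groups was measured on 1 Clariom S array each. Per the labels, the authors made the deposited values with SST-RMA in Affymetrix Expression Console 1.4. They are taken as log2 expression, and base 2 was read from their range. The sources used here give no genome build. Of 28846 probe sets, 19572 carried 1 gene symbol in the platform annotation and 0 several; all matched RefSeq. For 55 genes with several probe sets the one with the highest mean was kept, leaving 19505 genes.

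Day and injection were fitted together with limma 3.58.1 (lmFit, eBayes, two-sided) in R 4.3.3 on 9753 genes, with Benjamini-Hochberg adjustment and a threshold of 0.05. The model leaves 1 residual degree of freedom, so an SE rests mostly on variance borrowed from other genes. Precision is limited by the number of arrays, which carry no read depth. Nothing says how many animals a sample holds, and no group has a repeat array. The error of the additive model is how far the Tbx6 difference at day 30 departs from that at day 7. The p-values are set against this departure, and not against a spread between animals or repeat arrays. Between single arrays, a reading at background was raised to the highest background probe set and the difference given as a bound, and none was given where both were at background. Fitted values use the deposited readings, unless given as a bound or as raised.

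The members and lists were chosen with earlier results of these data known. Named genes were all members, up to 4 tested genes per list with the largest day change and a reading above background, Igf2, H19 and Myc, and the 3 nearest patterns. The fit was also run on simulated data with independent noise and no background floor, which cannot show whether the additive model holds for these arrays. Tables and plots used Python 3.11.15, numpy 2.4.6, pandas 2.3.3 and matplotlib 3.10.9.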

Additional observations from a re-analysis of the deposited data

Results flagged for a closer look

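In 2 named genes the PBS pair and the Tbx6 pair moved in opposite directions between days, with 1 array per group, so that the difference was not tested. Ucp1 was lower at day 30 by at least 5.87 after PBS, where the later reading was at background, and higher by 0.74 after Tbx6, pairs that differ by at least 6.61. Some adipocyte markers, of which Ucp1 is 1, were lower with Tbx6 at day 7 and higher at day 30, such as Adipoq. Adipoq read 7.98 with PBS and 6.08 with Tbx6 at day 7, and 7.49 and 9.83 at day 30. Within the PBS pair it differed between days by only -0.49, and within the Tbx6 pair by 3.75, also in opposite directions. Cidea was higher with Tbx6 on both days (0.53 and 0.62), and Fabp4 hardly differed at day 7 (-0.04). Plin1 and Lep were at background on every array. The part of these markers in the Ucp1 readings was not tested. Ybx3 was higher by 0.48 after PBS and lower by 0.10 after Tbx6, pairs that differ by -0.57.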

How the results depend on the processing

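The day change of Igf2bp3 stayed negative and uncalled under quantile normalisation, median centring, no filter, a trended robust prior, the lowest probe set, day as the only term and each array left out (-0.67 to -0.16). It was 0.0150 with readings raised to background, where the background level itself differs between arrays. It was not tested with the filter of at least 2 arrays above background, which it misses. Its injection difference stayed uncalled under quantile normalisation, median centring, no filter, the trended robust prior, the lowest probe set and injection as the only term, and was not fitted with arrays left out or readings raised. Its bound at day 7 was -0.31 to -0.29 under the other normalisations. Member readings above background numbered 1 at the highest and at the 95th percentile of the background probe sets, 4 at their median, and 13 at the highest of those numbered GC08 to GC18, which was added after seeing the data. With 1 array left out and day as the only term, where the lone array of a day is assumed to vary like the others, 693 to 1114 genes were called higher and 555 to 981 lower, against 1385 and 1177. Without PBS at day 30 these were 781 and 621. Of 28 named genes, the direction turned for Myc without the PBS array of day 7 (0.0292) and for Ybx3 without the PBS array of day 30 (-0.00282), neither of them called. Between Tbx6 and PBS at day 30 both readings of every member were at background, so no value could be recomputed. No paired analysis was possible because each group holds 1 array.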
